A study of Homo sapiens with 9 samples.

Results

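The 3 noncoding RNA genes, AP000695.4, RP11-599J14.2 and RP1-167A14.2, were followed through 9 Chrom-seq libraries of HEK293T, a widely used cell line derived from human embryonic kidney. They were chosen by their gain with the CBX1 reader over the control, out of 57820 genes in the count table, of which 37475 had a type other than protein coding. The group called CBX1 (3 libraries) carried SunTag epitopes fused to the chromodomain of CBX1. The CBX1_W42A group (3 libraries) carried that chromodomain with the amino acid change W42A, and the control (3 libraries) carried the epitopes without a reader. The labels of all 3 groups, control included, hold the letters NLS, which usually stand for a nuclear localisation signal. Where these proteins lay in the cell was not tested here. All cells had been transiently transfected with the epitope plasmid and with an antibody fragment fused to the peroxidase APEX2, which binds the epitopes. The peroxidase was given biotin-aniline and hydrogen peroxide in living cells, and biotinylated RNA was captured on streptavidin. Polyadenylated RNA was copied from random primers and counted as read pairs per gene. By the sample records, every group had the same settings. Expression lasted 48 hours, and the doses were 500 µM of the biotin compound over 30 min and 1 mM of the peroxide over 1 min.

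H3K9me3 is the histone mark of constitutive heterochromatin and of many silenced zinc finger gene clusters and repeats. CBX1, also known as HP1 beta, binds it through an aromatic cage in its chromodomain, and a change of the tryptophan of that cage weakens binding. An RNA is labelled when it lies near the peroxidase, so a captured level combines how much of the RNA a cell holds with how near the reader it is, and in bulk libraries fewer cells holding an RNA and less RNA per cell cannot be told apart.

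AP000695.4 (ENSG00000233818.1) is annotated as antisense and lies at chr21:37818029-37904706 on the plus strand of GRCh37, a span of 86678 bases. It runs against CLDN14, a tight junction claudin gene, and a later annotation names it CLDN14-AS1. RP11-599J14.2 (ENSG00000256673.1) is a pseudogene at chr12:9550951-9567447 on the minus strand, a span of 16497 bases. RP1-167A14.2 (ENSG00000227598.1) is annotated as antisense at chr6:167383114-167412553 on the minus strand, a span of 29440 bases, and holds the microRNA gene MIR3939 in an intron. The annotated exons made up 1.36%, 2.42% and 1.31% of the 3 spans, in that order, and reads were counted over the whole span, introns included.

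The stretch around the annotated start differs between RP11-599J14.2 and RP1-167A14.2. Where transcription begins was not mapped in these data. Each window below runs from 250 bases before the start to 50 bases after it, 5′ to 3′ on the strand of the gene, read from the GRCh37 genome, with every CpG in capitals. The windows lie at chr12:9567398-9567697 (minus) and chr6:167412504-167412803 (minus).
RP11-599J14.2: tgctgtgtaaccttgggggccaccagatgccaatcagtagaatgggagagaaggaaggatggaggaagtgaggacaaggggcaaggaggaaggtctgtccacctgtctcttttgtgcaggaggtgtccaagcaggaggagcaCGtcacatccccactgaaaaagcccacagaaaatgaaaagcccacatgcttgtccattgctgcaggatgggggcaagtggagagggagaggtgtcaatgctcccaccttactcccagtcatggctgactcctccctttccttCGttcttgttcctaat
RP1-167A14.2: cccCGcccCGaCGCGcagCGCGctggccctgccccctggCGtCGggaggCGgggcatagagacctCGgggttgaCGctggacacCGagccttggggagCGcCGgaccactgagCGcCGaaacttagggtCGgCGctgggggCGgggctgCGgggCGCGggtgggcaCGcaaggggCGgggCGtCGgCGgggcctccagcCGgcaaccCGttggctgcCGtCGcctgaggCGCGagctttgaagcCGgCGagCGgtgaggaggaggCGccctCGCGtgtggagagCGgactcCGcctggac

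The annotated start of RP1-167A14.2 lay in a CpG-rich window, with 41 CpG and 76.3% G or C. Its CpG count was above that of 91.5% of the windows of 18826 genes tested with CBX1 against the control. This window also holds the annotated start of FGFR1OP, a gene that runs the other way, so its letters belong to both starts. The window of RP11-599J14.2 held 2 CpG, above 4.75% of those windows, whose median was 19. Promoter motifs were searched on both strands. The letters TATAAA occurred in neither window and in 17.6% of all 57757 windows, or 8.4% of those of tested genes. CCAAT occurred once in the window of RP11-599J14.2, 221 bases before the start, and in 36.6% of all windows, or 34.1% of those of tested genes. GGGCGG, the GC box, occurred 3 times in the window of RP1-167A14.2 and at least once in 26.2% of all windows, or 54.6% of those of tested genes. Such matches describe the letters alone.

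Libraries held between 8379542 and 11082852 counts each, and 21709 to 23819 genes had a count. The same-group libraries differed by more than counting noise, so none was counted as a repeat of another. All 7 listed markers of HEK293T cells were detected in every library, with a summed level of 1088 to 1329 CPM in the control, 962 to 1164 CPM with CBX1 and 1009 to 1222 CPM with CBX1_W42A. Of the markers of other cell types, CD3E, HBB and SFTPC, which mark T cells, red blood cells and lung, were at 0. ALB was at 0.388 to 2.78 CPM, and APOA1 and PTPRC reached at most 0.668 and 0.193 CPM. COL1A1, at 22.5 to 39.8 CPM, was above the HEK293T markers PAX2 (4.07 to 10.6 CPM) and LHX1 (9.13 to 19.8 CPM). The sum of the list of other cell types, mostly COL1A1, was 23.9 to 35.3 CPM in the control, 30.9 to 35.7 CPM with CBX1 and 31.3 to 40.8 CPM with CBX1_W42A. CBX1 itself did not differ between the CBX1 group and the control (log2 fold change -0.17, adjusted p = 0.22, edgeR quasi-likelihood test), and its counts do not tell the native transcript from the transfected chromodomain.

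Levels were expressed as CPM, the count divided by the scaled library total. AP000695.4, the long antisense transcript of the CLDN14 locus, was low in the control and at its highest with CBX1. Its counts were 9, 14 and 19 in control replicates 1, 2 and 3, 109, 101 and 139 with CBX1, and 52, 41 and 39 with CBX1_W42A. This corresponded to 0.873, 1.58 and 2.29 CPM in the control, 12.1, 11.2 and 13.4 CPM with CBX1, and 4.76, 4.32 and 4.13 CPM with CBX1_W42A. The 3 groups did not overlap, and the CBX1_W42A libraries lay between the others. All members were chosen for the gap between CBX1 and the control, and how often other genes separate in this way was not counted. The mean was 1.58 ± 0.711 CPM (SD, n = 3) in the control, 12.3 ± 1.13 CPM with CBX1 and 4.40 ± 0.326 CPM with CBX1_W42A, so the mutant reader gave 35.9% of the CBX1 level.

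RP11-599J14.2, the pseudogene, had higher levels in all groups. Its counts were 177, 125 and 193 in the control, 515, 532 and 507 with CBX1, and 377, 351 and 376 with CBX1_W42A. The CPM were 17.2, 14.1 and 23.3 in the control, 57.3, 58.9 and 49.0 with CBX1, and 34.5, 36.9 and 39.8 with CBX1_W42A. Again the 3 groups were separate, in the same order as for AP000695.4. The means were 18.2 ± 4.67 CPM (SD, n = 3) in the control, 55.1 ± 5.31 CPM with CBX1 and 37.1 ± 2.64 CPM with CBX1_W42A, which was 67.3% of the CBX1 level.

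RP1-167A14.2, the transcript with the CpG-rich start window, reached a similar level with both readers. It was counted 210, 193 and 209 times in the control, 484, 467 and 495 times with CBX1, and 428, 516 and 396 times with CBX1_W42A. Levels were 20.4, 21.8 and 25.2 CPM in the control, 53.9, 51.7 and 47.9 CPM with CBX1, and 39.2, 54.3 and 41.9 CPM with CBX1_W42A. Both reader groups lay above the control, and they overlapped each other, since the highest of all 9 libraries was CBX1_W42A replicate 2. The means were 22.5 ± 2.49 CPM (SD, n = 3) in the control, 51.2 ± 3.05 CPM with CBX1 and 45.1 ± 8.06 CPM with CBX1_W42A, which was 88.2% of the CBX1 level.

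**Figure D1:**
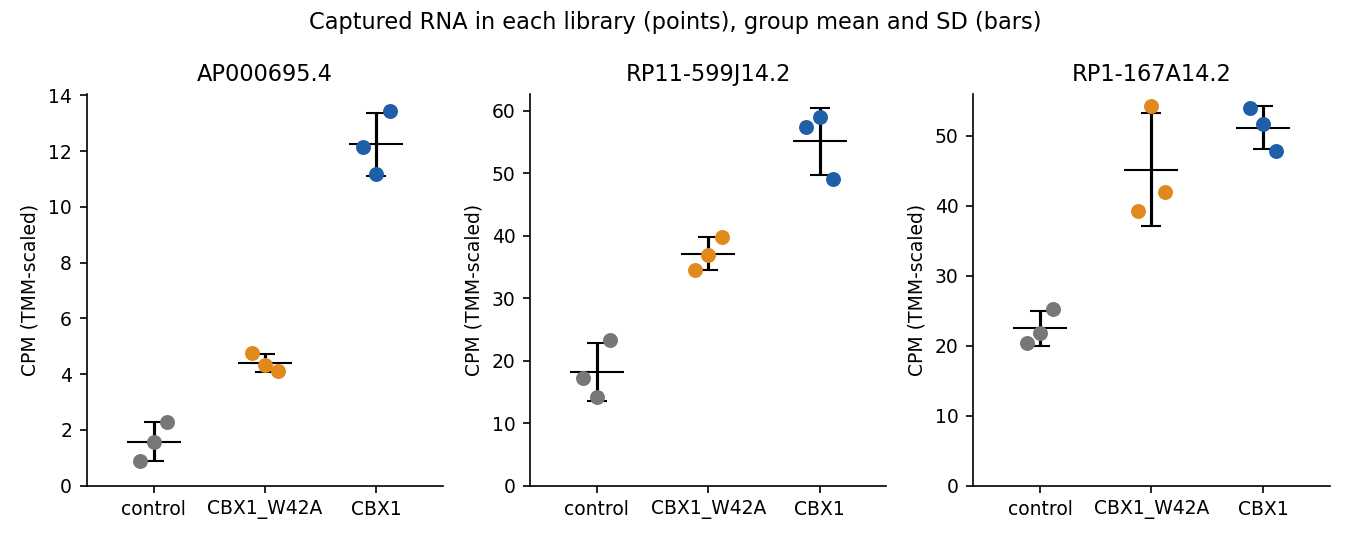
Each panel shows 1 noncoding RNA, with its level in CPM on the y axis (from 0) and the 3 groups on the x axis; points are libraries, and bars are the group mean and SD (n = 3). All CBX1 and CBX1_W42A libraries sit above the control libraries, and the 2 reader groups overlap for RP1-167A14.2 but not for AP000695.4 or RP11-599J14.2.

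Per kilobase of span outside other genes of the same strand, the pseudogene had the highest level of the 3. With CBX1 the levels were 3.34 ± 0.322 CPM per kb (SD, n = 3) for RP11-599J14.2, 1.74 ± 0.104 for RP1-167A14.2 and 0.248 ± 0.0229 for AP000695.4. In the control they were 1.10 ± 0.283, 0.766 ± 0.0850 and 0.0320 ± 0.0143 CPM per kb in the same order. The order of the 3 means was the same in all groups, although in the control the lowest library of RP11-599J14.2 and the highest of RP1-167A14.2 were level within their spread, and AP000695.4 stayed lowest although its rise was the steepest.

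The contrast of CBX1 with the control had chosen the 3 genes, so its values are given as a description, without a test. The log2 fold change was 3.0 (SE 0.27) for AP000695.4, 1.62 (SE 0.15) for RP11-599J14.2 and 1.21 (SE 0.12) for RP1-167A14.2. Over all 18837 genes tested, 1330 (7.06%) were called higher with CBX1. A call needed both an adjusted p under 0.05 and a log2 change of 0.75 or more. Over the same genes, the median log2 fold change was 0.03. Among the 644 noncoding RNAs called, the members ranked 1, 2 and 3 by p. By size of the change they ranked 46, 263 and 411, so many noncoding RNAs had a larger fold change with a wider error. MALAT1, an abundant nuclear noncoding RNA, was next by p, just outside the members, with a log2 fold change of 1.08.

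CBX1_W42A was compared with the control in a separate fit, which shares the control libraries with the contrast that chose the members. The sample records number the CBX1_W42A libraries apart from the rest, and the labels do not say whether all were prepared together. A difference in preparation therefore cannot be told apart from the reader in any comparison with that group. All 3 members were called higher, against 182 of 18680 genes (0.974%) overall. Low values in the same control libraries had helped to choose the members. Their calls and p-values here are therefore not independent of that choice. The log2 fold change was 1.00 (SE 0.15) for RP1-167A14.2, with an adjusted p of 0.00187 by edgeR's quasi-likelihood test. For RP11-599J14.2 it was 1.02 (SE 0.16), adjusted p = 0.00331, and for AP000695.4 it was 1.49 (SE 0.34), adjusted p = 0.0303. The call of AP000695.4 was lost in 5 of 6 fits that left out 1 library. Without control replicate 1 its log2 fold change was 1.19 (adjusted p = 0.125). In the other lost fits the change stayed near its full value, at 1.52 without control replicate 2 (adjusted p = 0.0542) and at 1.44, 1.5 and 1.54 without CBX1_W42A replicates 1, 2 and 3 (adjusted p = 0.0687, 0.0657 and 0.0633). Without control replicate 3 it was 1.85 and the call was kept (adjusted p = 0.0304).

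CBX1 was compared with CBX1_W42A in a fit that shares the CBX1 libraries with the contrast that chose the members. High values in those libraries had helped to choose them, so the members' calls and p-values are again not independent of that choice. AP000695.4 was higher with the intact chromodomain by a log2 fold change of 1.47 (SE 0.20, adjusted p = 0.000561, edgeR's quasi-likelihood test) and was the only member called, against 154 of 19360 genes (0.795%) overall. RP11-599J14.2 differed by 0.57 (SE 0.12, adjusted p = 0.0107), which passed the test but not the minimum fold change of 0.75, and the adjusted p was 0.064 without CBX1 replicate 1. The difference for RP1-167A14.2 was 0.18 (SE 0.13, adjusted p = 0.494), with a 95% interval from -0.08 to 0.44, so a difference of the size seen for AP000695.4 lay outside that interval. The CBX1_W42A libraries held 26.4% of the CBX1 gain over the control for AP000695.4, 51.2% for RP11-599J14.2 and 79.0% for RP1-167A14.2. Whether these shares differ between the members was not tested.

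Neighbours were taken by position alone, as all genes within 200 kb of a member on either strand. There were 42, of which 25 had a count and 17 were tested with CBX1 against the control. Of these 17, 3 were called higher (17.6%, against 7.06% of all genes tested) and 1 was called lower, against 64 of 18837 genes (0.34%) overall. The median log2 fold change of the 17 was 0.05. With CBX1_W42A against the control, 0 of the 17 were called by edgeR and 0 by DESeq2, while 6 had an unadjusted p below 0.05. With CBX1 against CBX1_W42A, 1 was called higher by either tool.

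**Figure D2:**
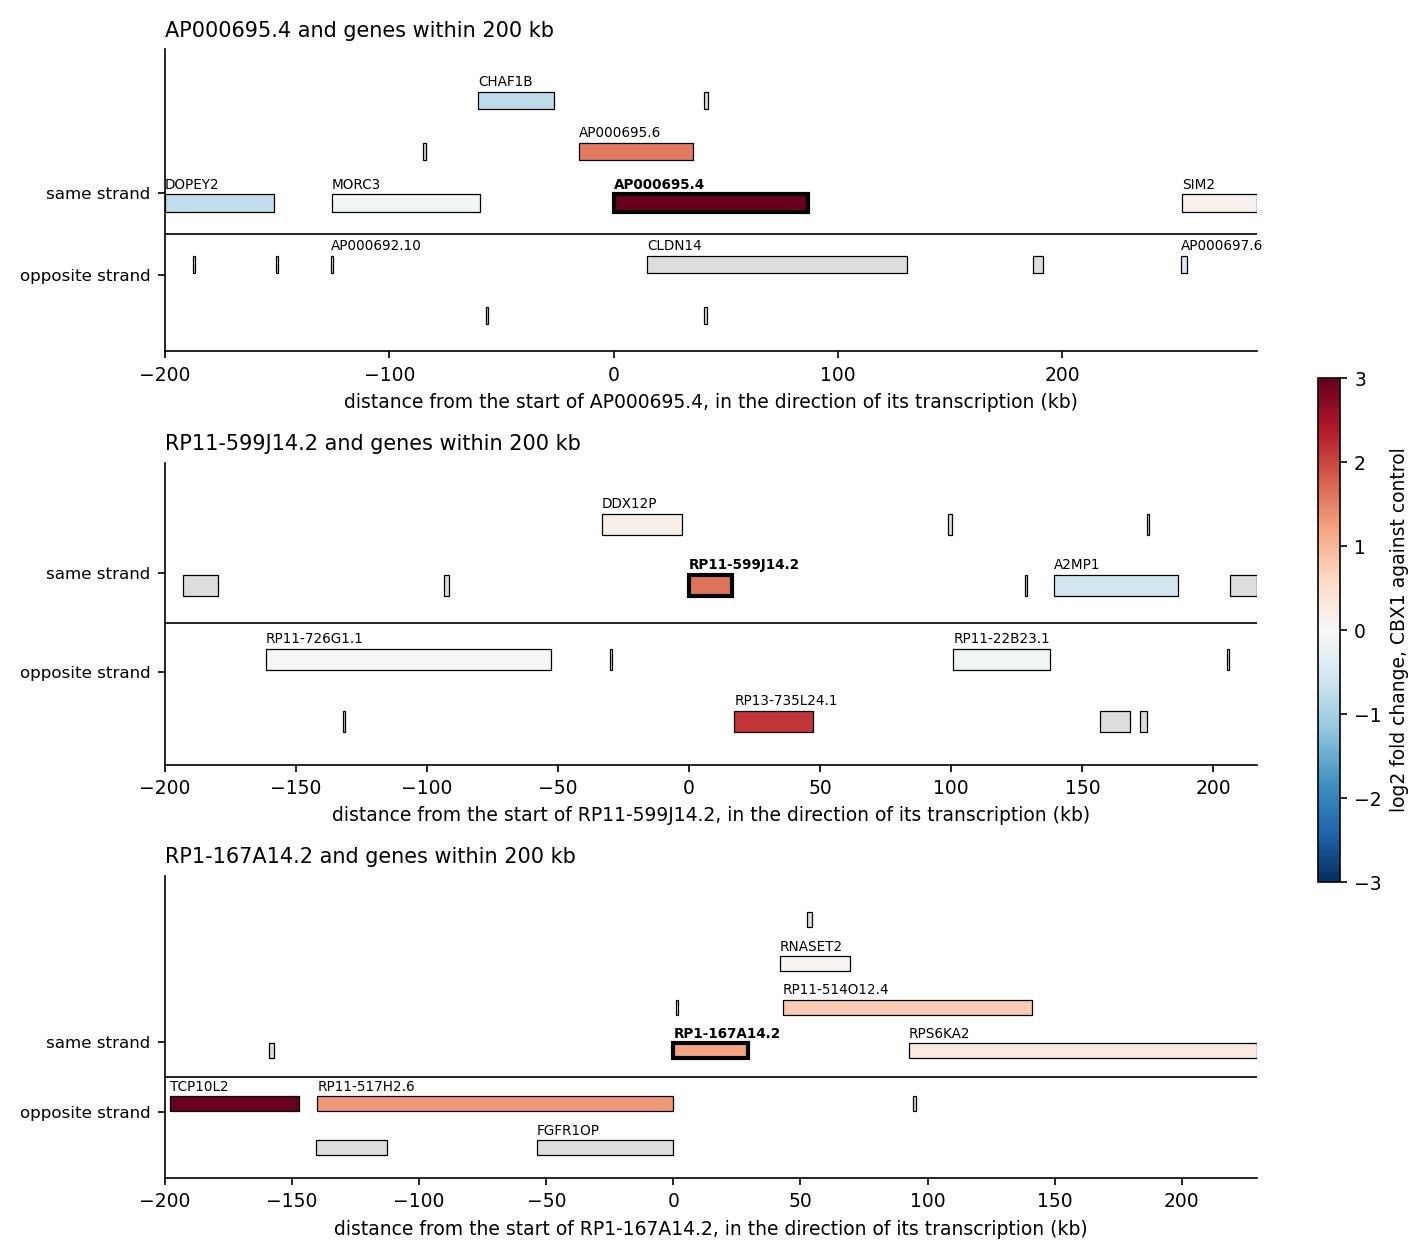
Gene maps of the 3 loci, with the distance from the member's start in kb on the x axis, in the direction of its transcription, genes of its strand above the line and genes of the opposite strand below. Colour gives the log2 fold change of CBX1 against control, from -3 (blue) to 3 (red), grey boxes were not tested, and the member is outlined in bold; the genes beside a member do not share 1 colour.

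Around AP000695.4, 1 of the 7 tested neighbours was called with CBX1 against the control, and its call was lower. CHAF1B, a subunit of the histone chaperone CAF-1, lies 26715 bases upstream on the same strand. It was at 130, 118 and 113 CPM in the control, 63.9, 75.4 and 65.7 CPM with CBX1 and 88.2, 96.6 and 92.7 CPM with CBX1_W42A. The 3 groups were separate, in the reverse of the member's order, and how often other genes separate in this way was not counted. CHAF1B was called lower with CBX1 than in the control (log2 fold change -0.80, SE 0.10, adjusted p = 7.80e-05, edgeR). The adjusted p stayed below 0.05 in all 13 alternatives, but the change was -0.71 with library size as the only scaling, -0.74 without control replicate 1 and just short of the minimum of 0.75 without CBX1 replicate 1, and in these it was not called. DOPEY2, further upstream, had a log2 fold change of -0.74 (SE 0.14, adjusted p = 0.00179, edgeR), just under that minimum. Its adjusted p stayed below 0.05 in all 13 alternatives. The change passed the minimum in some, such as -0.85 without control replicate 3, and fell further short in others, such as -0.65 with library size alone.

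By the inferred counting rule, reads in a stretch shared with another gene of the strand were counted for neither. The counts of AP000695.4 then came from 57.0% of its span. The first exon of both its transcripts lies inside the span of AP000695.6, so of its annotated exons only the last, of 438 bases, was free. AP000695.6, the overlapping antisense gene, had 2, 10 and 4 counts in the control, 10, 22 and 17 with CBX1 and 7, 8 and 7 with CBX1_W42A. Its log2 fold change of 1.55 with CBX1 (SE 0.56) did not pass the test (adjusted p = 0.0607, edgeR). It passed in 3 of 13 alternatives, without the filter on low counts (adjusted p = 0.0263), with filterByExpr (0.0473) and without control replicate 2 (0.0184), and leaving out 1 library moved the change from 1.09 to 2.37. CLDN14 on the opposite strand had 4, 4 and 3 counts with CBX1 and 0 in all control and CBX1_W42A libraries. It was too low to be tested. Its summed level with CBX1 was 3.83 times what a control sum of 3 counts would give, and 3.98 times such a sum with CBX1_W42A. The counting error of its own 11 counts and the spread between libraries are not in these ratios. MORC3, SIM2, AP000697.6 and AP000692.10, the other tested neighbours, had log2 fold changes between -0.49 and 0.12 and were not called.

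Around RP11-599J14.2, the nearest gene was RP13-735L24.1, a long intergenic noncoding RNA on the opposite strand that ends 737 bases from the pseudogene's end. It had 9, 3 and 15 counts in the control, 37, 39 and 48 with CBX1 and 30, 29 and 16 with CBX1_W42A. The CBX1 libraries were above all others. It rose with CBX1 against the control by a log2 fold change of 2.15 (SE 0.40, adjusted p = 0.00176, edgeR). With CBX1_W42A its change of 1.31 (SE 0.47) did not pass (adjusted p = 0.134).

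DDX12P, a helicase pseudogene, ends 2861 bases upstream of RP11-599J14.2 on the same strand and was far more abundant, at 188 ± 3.37 CPM (SD, n = 3) in the control, 209 ± 11.6 CPM with CBX1 and 180 ± 4.91 CPM with CBX1_W42A. Its log2 fold change with CBX1 was 0.17 (SE 0.09, adjusted p = 0.179). RP11-599J14.2 had 7.66% to 12.3% as many counts as DDX12P in the control libraries, 24.6% to 28.6% with CBX1 and 19% to 21.7% with CBX1_W42A. The ranges did not overlap. The counts of RP11-599J14.2 in the control and CBX1 libraries had chosen it, so these shares are a description. RP11-22B23.1, RP11-726G1.1 and A2MP1, the remaining tested pseudogenes nearby, were not called in any of the 3 comparisons.

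The sequence of RP11-599J14.2 is not unique, which makes its counts uncertain. Of its span, 92.2% aligned to other places of chromosome 12, in 7 alignments at 92.0% to 97.9% identity, and all 4 annotated exons lay in such copies. The closest copy, 4399 bases at 97.9% identity at chr12:31265888-31270298, lies in the pseudogene RP11-551L14.1, which had 371 counts in the control group, 359 with CBX1 and 476 with CBX1_W42A. A copy of 6864 bases at 95.4% identity lies in RP11-726G1.1, with 631, 655 and 586 counts in the same order. Another, of 6181 bases at 96.7% identity at chr12:9469540-9475708, lies in no gene of the count table, so no counts exist for it. Over their whole spans, neither RP11-551L14.1 nor RP11-726G1.1 rose with CBX1 as the member did. Both spans are much longer than the copies, and reads in the copies alone were not counted. How reads matching several copies were shared out was not tested. AP000695.4 and RP1-167A14.2 had 0 such alignments elsewhere. Hits scoring under 0.05 of a span's best hit were dropped, so short copies were more easily missed in these longer spans.

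**Figure D3:**
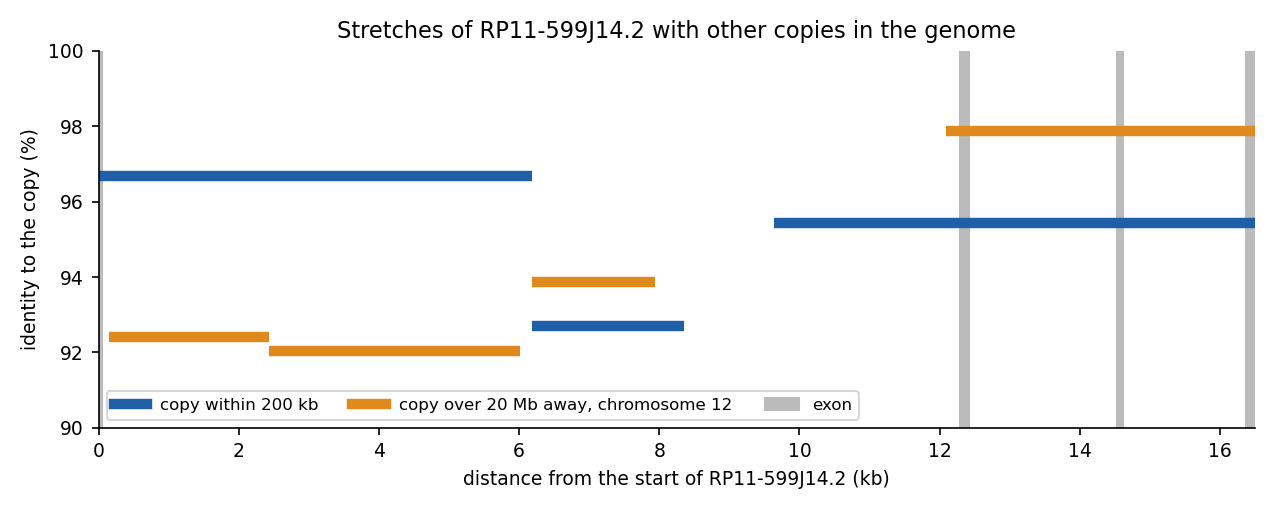
The x axis is the distance from the start of RP11-599J14.2 in kb and the y axis is the identity in percent (from 90) of each stretch that aligned elsewhere on chromosome 12; blue copies lie within 200 kb, orange ones over 20 Mb away, and grey bands are exons. The 7 stretches cover 92.2% of the span at identities from 92.0% to 97.9%.

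Around RP1-167A14.2, 2 genes of the opposite strand were called higher with CBX1. The member's start is 116 bases from FGFR1OP, which codes for a centrosomal protein and runs the other way. FGFR1OP had 5, 3 and 5 counts in the control, CBX1 and CBX1_W42A groups and could not be judged, since only 223 of its 53532 bases lay outside RP11-517H2.6, a transcript that spans the same strand. RP11-517H2.6 had 7, 15 and 18 counts in the control, 39, 37 and 27 with CBX1 and 23, 33 and 28 with CBX1_W42A. Scaled to the library total, the CBX1 libraries were above the control libraries, while CBX1_W42A replicate 1 was just below control replicate 3. It was called higher with CBX1 against the control (log2 fold change 1.32, SE 0.39, adjusted p = 0.0237, edgeR). Among the fits that left out 1 library, the call was lost without control replicate 1 (log2 fold change 0.93, adjusted p = 0.099), without CBX1 replicate 1 (1.18, adjusted p = 0.092) and without CBX1 replicate 2 (1.23, adjusted p = 0.0708).

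TCP10L2, a protein-coding gene 147348 bases upstream on the opposite strand, had the largest log2 fold change with CBX1 among the 17 tested neighbours. Its counts were 4, 3 and 4 in the control, 32, 30 and 29 with CBX1 and 7, 11 and 12 with CBX1_W42A. The 3 groups were separate, as for AP000695.4 on another chromosome and unlike RP1-167A14.2 itself. The log2 fold change was 2.98 (SE 0.43, adjusted p = 0.000272) with CBX1 against the control and 1.66 (SE 0.38, adjusted p = 0.0214) with CBX1 against CBX1_W42A, by edgeR. This last call was lost without CBX1 replicate 1 (adjusted p = 0.105), CBX1 replicate 3 (0.0536) or CBX1_W42A replicate 1 (0.0769), where the log2 fold change was 1.59, 1.76 and 1.40.

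Downstream of RP1-167A14.2 on the same strand, RNASET2, a secreted ribonuclease gene, was at 8.31 ± 1.39 CPM (SD, n = 3) in the control and 8.46 ± 3.22 CPM with CBX1, with a log2 fold change of 0.05 (SE 0.24, adjusted p = 0.902). RP11-514O12.4 had a change of 0.79 (SE 0.42, adjusted p = 0.196) and RPS6KA2, a ribosomal S6 kinase gene, a change of 0.24 (SE 0.12, adjusted p = 0.159). None of the 3 was called in any comparison. Only 1067 of the 27688 bases of RNASET2 and 23.5% of the span of RP11-514O12.4 lay outside other genes of their strand. Their values therefore rest on a small part of each gene. MIR3939, inside the member, was at 0 in all libraries. By the inferred counting rule, reads there would be counted for neither gene, and other reasons for the 0 were not tested.

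**Figure D4:**
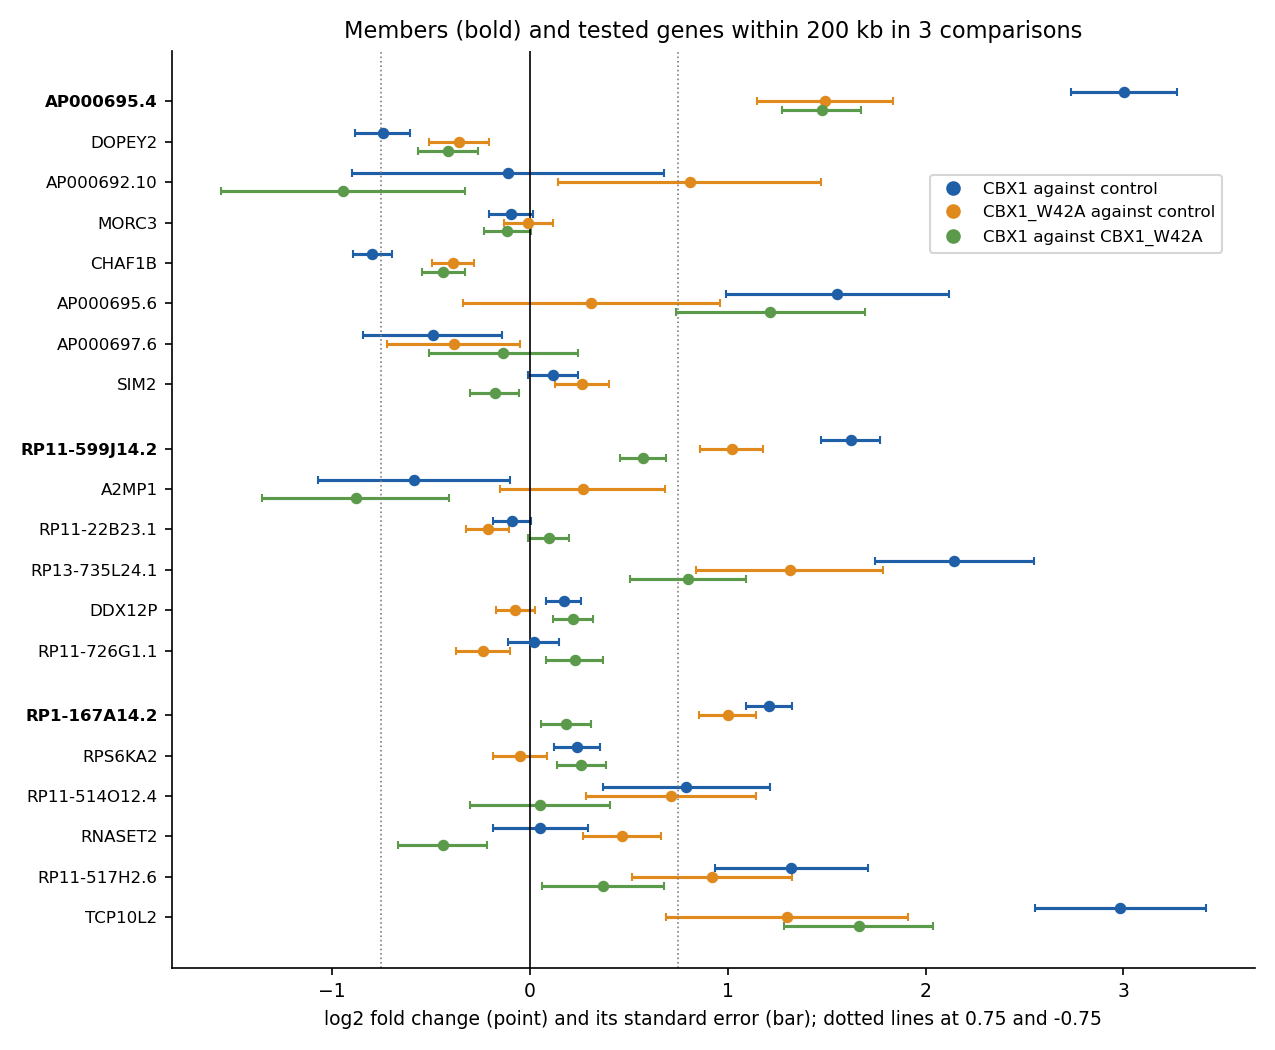
Log2 fold change (x axis, point) with its standard error (bar) for the 3 members, in bold, and the 17 tested neighbours below each of them, for CBX1 against control (blue), CBX1_W42A against control (orange) and CBX1 against CBX1_W42A (green); dotted lines mark 0.75 and -0.75. The members lie right of 0.75 in blue and orange, while in green AP000695.4 alone does.

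The genes whose levels followed each member most closely were ranked by Pearson's r of log2(CPM + 0.1) over the 9 libraries, among 16074 genes with a mean of at least 1 CPM. The 9 points share 3 groups, so r mostly reflects the group order and is given as a description. For AP000695.4 these were MCM3AP-AS1 (r = 0.986), RP1-167G20.1 (0.982) and the zinc finger gene ZNF682 (0.979). For RP11-599J14.2 they were COL7A1, a collagen gene (0.995), IFI27, an interferon-induced gene (0.991), and RP11-775H9.2 (0.989). RP1-167A14.2 was followed by IDI2-AS1 (0.989), DPYS, a pyrimidine breakdown enzyme (0.983), and AGBL3 (0.983). Among the members themselves, r was 0.942 for AP000695.4 with RP11-599J14.2, 0.943 for RP11-599J14.2 with RP1-167A14.2 and 0.898 for AP000695.4 with RP1-167A14.2.

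Biotin-aniline reacts mainly with guanosine, so the base content of the spans was set beside the levels. The share of G on the transcribed strand was 24.6% for AP000695.4, 25.1% for RP11-599J14.2 and 22.3% for RP1-167A14.2, against a median of 23.0% over 18826 genes. The spans lay above 61.5%, 64.7% and 43.3% of those genes in G content, so the members were not at an end of that range. Their lengths were above 78.8%, 37.5% and 51.8% of those genes. The part of base content in the levels was not tested.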

How the data were processed

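RNA was measured in 9 Chrom-seq libraries of HEK293T cells, 3 per group, with groups and replicate numbers taken from the sample labels. The authors trimmed reads with fastp 0.23.1, aligned them to hg19 with HISAT2 2.1.0 and counted them with featureCounts 2.0.1 on GENCODE version 19, and deposited raw counts per gene. The methods treat the libraries as strand-specific in a separate step, but the strand setting of the counting is not given in the sources used here. It was inferred, from the listed lengths and from genes at 0 inside others of their strand, that strands were kept apart, that introns were included, and that a read shared by overlapping genes of one strand went to neither, and levels per kb rest on this.

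From the counts, CPM with TMM factors over all 9 libraries gave levels. Each pair of groups was fitted with edgeR 4.0.16 (R 4.3.3) on its 6 libraries, for genes with more than 18 counts in sum, with TMM factors, the quasi-likelihood test and Benjamini-Hochberg adjustment over all genes. The fits were tested on simulated data. Alternatives were DESeq2 1.42.0, RLE factors or library size alone, no filter or filterByExpr, a joint fit of all 9 libraries, a replicate block, and each library left out in turn. The study calls its replicates independent, without saying whether they were separate cultures, so p-values measure the spread between these libraries. The members and lists were chosen with earlier results of these data known.

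Exons came from GENCODE version 44 lifted to GRCh37, and copies were found with minimap2 2.31 (preset asm20, secondary score ratio 0.05). Named genes were the members, their overlapping or tested neighbours within 200 kb, the 3 most correlated genes per member, and CBX1. A marker list held 7 genes of HEK293T cells and genes of other cell types. The depth was between 8379542 and 11082852 counts per library. The floor of 3 counts allows for counting error in a group at 0 only. The 95% interval of a fold change includes the spread between libraries. The start window of AP000695.4 is not reported here.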

Additional observations from a re-analysis of the deposited data

How the results depend on the processing

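Of 117 alternative values of the members' log2 fold changes, 111 were judged unchanged and 0 reversed direction. In the comparisons with CBX1_W42A, unchanged meant the same direction and the same side of the adjusted p threshold. For CBX1 against control, which chose the members, no p was used in that judgement. The exceptions were leave-outs. AP000695.4 with CBX1_W42A against control ranged from 1.19 to 1.85, and RP11-599J14.2 with CBX1 against CBX1_W42A from 0.52 to 0.65. For CBX1 against control, leaving out 1 library gave 2.67 to 3.36 for AP000695.4, 1.46 to 1.84 for RP11-599J14.2 and 1.13 to 1.31 for RP1-167A14.2. Without the filter on low counts, 5 neighbours in place of 3 were called higher with CBX1 against control, 338 genes in place of 182 with CBX1_W42A against control, and 244 in place of 154 with CBX1 against CBX1_W42A. With all 9 libraries in one fit, 282 genes were called with CBX1_W42A against control. Leaving out 1 library gave 36 to 141 calls there, 67 to 184 calls and 0 to 1 neighbours with CBX1 against CBX1_W42A, and 2 to 4 neighbours with CBX1 against control. The fewest calls came without control replicate 1 (36) and without CBX1 replicate 1 (67), and the cause was not tested.

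The shared replicate numbers were not treated as a pairing: over 9 same-number pairs the correlation of deviations from the group means was -0.303 to 0.222, and 4 of 9 libraries were closest to their own number. With the replicate number as a block, 1021, 201 and 250 genes were called in the 3 comparisons, in place of 1330, 182 and 154. The neighbours called higher with CBX1 against control fell from 3 to 2 (RP11-517H2.6, adjusted p = 0.0513). In the comparisons with CBX1_W42A, the members' calls were unchanged with that block. For CBX1 against control, the members' log2 fold changes with the block were 3.01, 1.63 and 1.21, given without a test. Depth limits the low neighbours most: CLDN14 had 11 counts in all.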

Other observations

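A neighbour below the count filter, chosen after its values were seen, was RP11-118B22.4, a long intergenic noncoding RNA 140394 bases from RP11-599J14.2. It had 4 counts in the control group, 13 with CBX1 and 4 in the CBX1_W42A group, and was not tested. KLRB1, a receptor gene of natural killer cells, and GPR31, a G protein-coupled receptor gene, both near a member, were at 0 in all 9 libraries.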
